A study of Drosophila melanogaster with 8 samples.

Results

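The nuclear genes of oxidative phosphorylation were taken from the Release 6 annotation of Drosophila melanogaster by symbol: those beginning with ND-, SdhA to SdhD, UQCR-, COX4 to COX8 or ATPsyn. The rule found 87 of 15941 protein coding and lncRNA genes. They comprise 40 genes of complex I, 7 of complex II, 9 of complex III, 16 of complex IV and 15 of complex V. Of the 87, 63 are subunit genes and 24 are duplicates whose symbol ends in L or L and a number, called paralogs here. A gene entered the tests when at least 3 GATC fragments overlapped it and it was not 0 in every profile. Of the members 80 passed, 61 subunit genes and 19 paralogs, out of 13998 genes tested. The 7 members left out were ND-B15, ND-B14.5A, ND-B14.5AL, UQCR-6.4L, COX4L and COX7CL, with 2 fragments each, and ATPsynGL, with 1.

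The occupancy of RNA polymerase II (Pol II) was measured by targeted DamID in the terminal cells of the adult fly trachea, fine branches that bring air to the midgut. In this method Dam, a methyltransferase from bacteria, is expressed alone or joined to Pol II, and it methylates GATC sites on the DNA it meets. All flies carried w-, dSRF-GAL4 with UAS-CD8GFP, and tub-GAL80ts with either UAS-LT3-Dam or UAS-LT3-Dam-Pol II. The groups were flies fed sucrose plus a solution of bacteria (Pe), a condition that the labels call damaged intestine, and flies fed sucrose alone (Suc), in both cases for the last 16 h of a 24 h induction at 29 °C that followed 7 days at 18 °C. Each condition had 2 biological replicates of 60 pooled midguts with the tracheal cells attached. Each profile sets a Dam-Pol II library against a Dam library, so 8 libraries gave 2 Pe and 2 Suc profiles. The driver dSRF-GAL4 sets which cells express Dam, and the DNA came from whole midguts, so signal from any gut cell that expresses the driver enters the values.

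Complex I passes electrons from NADH, and complex II those from succinate, to ubiquinone; complex III hands them to cytochrome c and complex IV to oxygen, and complex V makes ATP from the proton gradient. All but complex II combine nuclear subunits with a few encoded in mitochondrial DNA, and the nuclear genes are commonly co-expressed across tissues. Many Drosophila genes of this pathway have a second copy elsewhere in the genome, and many of these copies are known for expression mainly in the testis.

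A gene value is the mean over a gene's fragments of the log2 ratio between Dam-Pol II and Dam, weighted by overlap length, so it does not grow with gene length, although in a long gene it averages stretches that can differ. A value of 0 means as much relative methylation by Dam-Pol II as by free Dam, where the fragment was covered. Of the nuclear fragments 16.7% and 26.0% were exactly 0 in the Pe profiles, against 15.2% and 15.8% in Suc. Such a 0 cannot be told apart from missing data, so values near 0 do not establish absence of Pol II. The profiles hold ratios, so depth is unknown, and precision rests on 2 profiles a condition. The median of all genes was 0.06 and 0.09 in the Pe profiles and between 0.00 and 0.10 in the Suc profiles. The upper tail was longest in Suc replicate 2, where 5% of fragments exceeded 2.04, against 1.23 to 1.42 in the other profiles. Called above 0, by the test given below, were 7.54% of all genes in Pe and 21.3% in Suc, the background for the marker counts that follow. Of 8 markers of tracheal terminal cells, 1 was called in Pe and 5 in Suc, and all 8 had a lower mean in Pe, 7 of them under median and MAD scaling. Their median was 0.56 and -0.05 in Pe, against 0.87 and 1.09 in Suc, and the median difference was -0.59. Of 10 enterocyte genes, which mark the main absorptive cells of the gut, 3 were called in Pe and 7 in Suc. Their median was 0.81 and 0.47 in Pe, against 1.31 and 1.34 in Suc, and the median difference was -0.48. The 11 muscle genes had a median of 0.07, with 0 called in Pe and 3 in Suc, and the 4 genes of intestinal stem cells and enteroblasts 0.26, with 0 and 2. Markers of enteroendocrine cells, haemocytes and fat body lay near 0, with list medians between -0.09 and -0.04, and none was called. The part of other cell types in the values below was not tested. In such bulk samples fewer cells of a type and less Pol II per cell cannot be told apart.

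Subunit genes of every complex carried Pol II signal. The median of the 61 subunit genes, taken over the means of the 4 profiles, was 0.94, against 0.05 for all genes tested, and 53 of the 61 were above 0 in all 4 profiles. Over all genes tested that share was 37.8%. The median of the subunit genes was 0.73 and 0.88 in the Pe profiles, against 0.86 and 1.27 in the Suc profiles. It lay above the median of all genes in each of the 4. Subunit genes are short, and genes under 2000 bp as a whole had a median of 0.04. The 19 paralogs tested had a median of -0.06, below the 0.05 of all genes. Of these paralogs 3 were above 0 in all 4 profiles, beside 37.8% of all genes.

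A gene was called occupied where its mean in a condition exceeded 0 in a one-sided limma test with a Benjamini-Hochberg adjusted p under 0.05 over all genes tested. In Pe 23 of 80 members were occupied, 22 subunit genes and 1 paralog, beside 7.54% of all genes. The adjusted limma p-values of these 23 all lay between 0.0458 and 0.0497. Every Pe call of a member was thus just under the threshold. In Suc 43 were occupied, 40 subunit genes and 3 paralogs, beside 21.3% of all genes. In both conditions 22 members were called, beside 7.31% of all genes. These counts rest on single profiles. Without Pe replicate 1, and likewise without Pe replicate 2, the count was 0 in both conditions; the lone profile was then assumed to vary like the other group. Without either Suc profile the counts moved too, and the share of all genes called moved with them. Under quantile normalization the Pe count was 54 and the Suc count 48, so the order of the conditions depended on the scaling. The share of all genes called in Pe also rose under that scaling, so this shift is not particular to the members.

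**Figure D1:**
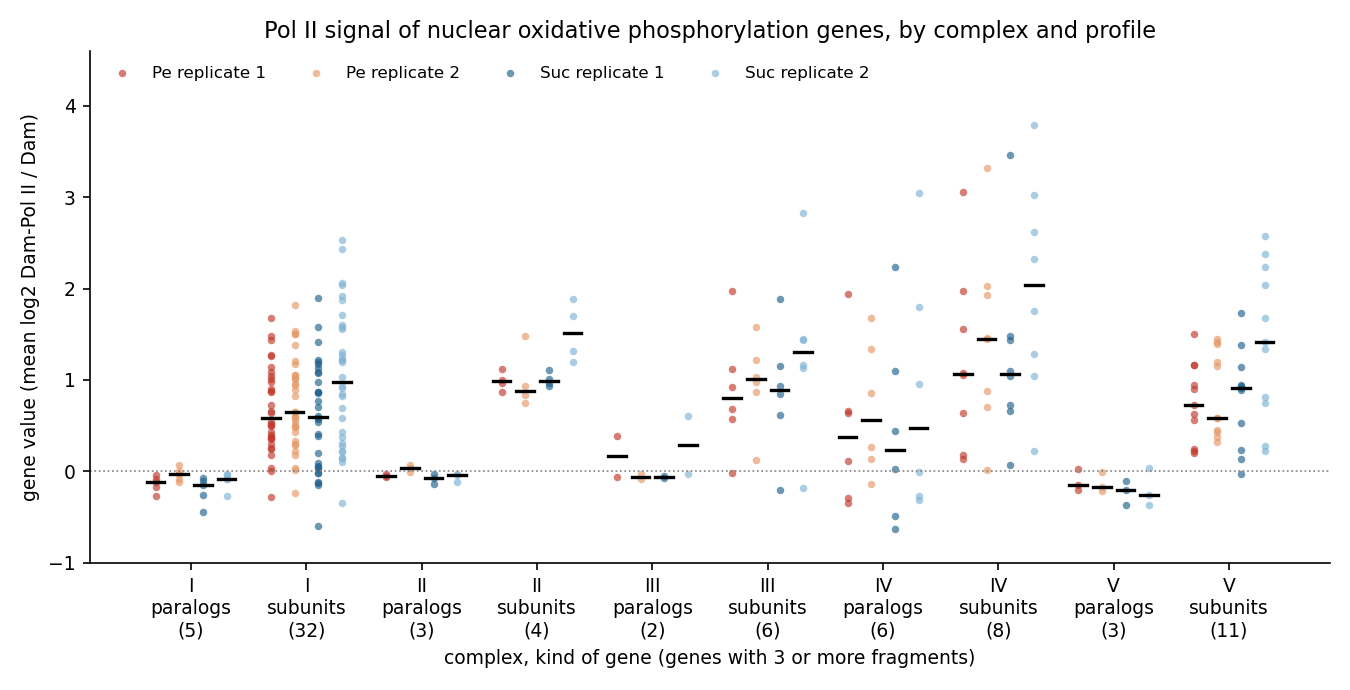
Gene values (mean log2 Dam-Pol II over Dam) of the 80 members tested, by complex and kind of gene; each point is a gene in 1 profile, coloured by profile, and each bar the median of its column. Subunit medians lay between 0.59 and 2.04 in every complex and profile, while the paralogs of complexes I, II and V lay near or below 0.

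Complex I, with 32 subunit genes tested, had the lowest median of the 5 complexes, 0.73. Among genes with 10 or more fragments complex V was lowest, at 0.24, and complex I had 0.41. By profile the median was 0.59 and 0.65 in Pe, against 0.60 and 0.98 in Suc. In Pe 11 and in Suc 18 of the 32 were occupied, beside 7.54% and 21.3% of all genes. The spread within the complex was wide, with means between -0.36 and 1.98.

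ND-ACP, the mitochondrial acyl carrier protein, which is also a complex I subunit, was the highest (3L:1329949-1331631). Its values were 1.67 and 1.82 in Pe, against 1.90 and 2.53 in Suc. It was occupied in both conditions, with adjusted limma p-values of 0.0458 in Pe and 0.0214 in Suc, and 9 of its 11 fragments overlap no other gene. ND-B15, an accessory subunit with 2 fragments and no test, had 0.93 and 2.26 in Pe, against 1.16 and 2.31 in Suc. Both of its fragments also touch another gene. At the low end stood ND-13B, with 0.04 and 0.02 in Pe, against 0.06 and 0.10 in Suc, and ND-MLRQ, with -0.29 and -0.23 in Pe, against -0.60 and -0.34 in Suc. ND-MLRQ spans 6611 bp and was the one subunit gene with values below 0 in all 4 profiles. Its mammalian counterpart has been assigned to complex IV as well.

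The 7 catalytic core genes, most of which carry the flavin or iron-sulfur clusters or help form the quinone site, had a median of 0.49, against 0.77 for the 25 accessory genes tested. Of the core genes 2 were occupied in each condition, ND-30 and ND-20, against 9 accessory genes in Pe and 16 in Suc. The shares of all genes called were 7.54% in Pe and 21.3% in Suc. ND-30 had 1.28 and 1.02 in Pe, against 1.18 and 1.71 in Suc. ND-20 had 0.87 and 0.88 in Pe, against 0.85 and 1.20 in Suc. ND-75, the largest nuclear subunit, had a whole-gene value near 0 over 3037 bp, with 0.01 and 0.04 in Pe, against 0.05 and 0.21 in Suc. Its highest fragment, at 2608 to 2911 bp, had 0.23 and 1.24 in Pe, against -0.06 and 1.25 in Suc. ND-51, which binds NADH and flavin, had 0.40 and 0.29 in Pe, against -0.02 and 0.83 in Suc, and its profiles overlapped between conditions. The core genes thus included both occupied and near-zero members, and the difference between core and accessory genes was not tested.

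The 4 genes of complex II, succinate dehydrogenase, which also serves the tricarboxylic acid cycle, were close together, with means from 0.99 to 1.23. All 4 were occupied in Suc and 2 of them, SdhB and SdhC, in Pe, beside 21.3% and 7.54% of all genes. SdhA, the flavoprotein, had 0.87 and 0.75 in Pe, against 0.94 and 1.70 in Suc. SdhB, the iron-sulfur protein, had 0.97 and 0.83 in Pe, against 0.97 and 1.19 in Suc. SdhC and SdhD encode the membrane anchor. SdhC had 1.12 and 1.48 in Pe, against 1.01 and 1.31 in Suc, and SdhD had 0.999 and 0.930 in Pe, against 1.11 and 1.89 in Suc. Both anchor genes lay above both catalytic genes in every profile except Suc replicate 2.

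Of 6 complex III genes 3 were occupied in Pe and 5 in Suc, beside 7.54% and 21.3% of all genes. The median of the 6 was 1.01. UQCR-Q, a small subunit named for ubiquinone binding (3L:17474761-17476124), was the highest, with 1.97 and 1.58 in Pe, against 1.89 and 2.83 in Suc. UQCR-6.4 had 1.12 and 0.98 in Pe, against 1.15 and 1.45 in Suc. Both were occupied in both conditions. The core proteins UQCR-C1 and UQCR-C2, which face the matrix and carry no redox centre, had means of 0.94 and 0.85. UQCR-C2 had 0.57 and 1.03 in Pe, against 0.62 and 1.16 in Suc. UQCR-11, the counterpart of the mammalian hinge protein that contacts cytochrome c1, lay near 0 as a whole gene, with -0.02 and 0.12 in Pe, against -0.20 and -0.18 in Suc.

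Complex IV, cytochrome c oxidase, had the highest median, 1.35, and all 8 of its subunit genes tested were above 0 in all 4 profiles. COX5B, which in mammals binds zinc on the matrix side, ranked 5 of 13998 genes by the mean over the 4 profiles (2L:6557800-6559308). It had 3.05 and 3.32 in Pe, against 3.46 and 3.79 in Suc. COX8, a small membrane subunit with 3 fragments, had 1.97 and 1.93 in Pe, against 1.43 and 3.02 in Suc, and was occupied in Suc. COX5A followed, with 1.55 and 2.03 in Pe, against 1.48 and 2.32 in Suc, and was occupied in both conditions. The median of the complex was 1.06 and 1.45 in Pe, against 1.07 and 2.04 in Suc, so Suc replicate 2 stood highest.

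At the low end of complex IV stood COX4, the largest nuclear subunit of the enzyme in mammals, with 0.18 and 0.01 in Pe, against 0.07 and 0.22 in Suc. It was called in neither condition. COX6B, which faces the intermembrane space, had 0.64 and 0.70 in Pe, against 0.66 and 1.28 in Suc. The gene spans 3799 bp and 19 of its 25 fragments are shared with other genes, so its value is that of the locus.

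In complex V, the ATP synthase, the median of the 11 subunit genes was 1.14. Of these 3 were occupied in Pe and 7 in Suc, beside 7.54% and 21.3% of all genes. ATPsynC, which encodes the c ring that turns in the membrane (3R:31216145-31219630), was the highest, with 1.50 and 1.39 in Pe, against 1.73 and 2.58 in Suc. ATPsynG, a small membrane subunit, had 1.16 and 1.15 in Pe, against 0.94 and 2.38 in Suc. The 4 peripheral stalk genes ATPsynO, ATPsynB, ATPsynD and ATPsynCF6 had a median of 1.07. The 3 genes of the F1 head and central stalk that the symbol rule took had a median of 0.24. The alpha and epsilon subunits of this part, blw and sun, carry other names and had means of 0.52 and 1.30. ATPsynbeta, the catalytic subunit, had 0.24 and 0.32 in Pe, against 0.13 and 0.28 in Suc. ATPsyndelta, a central stalk subunit, had 0.20 and 0.37 in Pe, against -0.03 and 0.22 in Suc. ATPsyngamma, the rotating shaft, was higher, at 0.73 and 1.20 in Pe, against 0.94 and 1.68 in Suc. ATPsyngamma thus stood at the median of the complex and the other two below it.

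The range between the highest and the lowest complex median was 0.62. Complex IV was highest and complex I lowest, an order kept under both other scalings and without each profile in turn. With fragments of a single gene the highest was complex II at 1.15, and complex I at 0.67 stayed lowest. Among genes with at least 10 fragments complex II was again highest, at 1.03, and complex V lowest, at 0.24. The complexes hold 4 to 32 tested genes, which overlapped in their values, and their difference was not tested.

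Of the 9 subunit and cytochrome genes with other names, 8 were tested, and all 8 were above 0 in all 4 profiles. Their median was 0.67, with 1 occupied in Pe and 2 in Suc, beside 7.54% and 21.3% of all genes. levy, the fly COX6A, had 1.17 and 1.97 in Pe, against 0.37 and 2.15 in Suc. cype, the fly COX6C, had 1.07 and 1.47 in Pe, against 1.05 and 1.88 in Suc. sun, the epsilon subunit of the ATP synthase, had 1.15 and 1.16 in Pe, against 1.10 and 1.80 in Suc, and was the one occupied in both conditions. The means of RFeSP, the Rieske protein of complex III, Cyt-c-p, the somatic cytochrome c, Cyt-c1, Cyt-c-d and blw, the alpha subunit of the ATP synthase, lay between 0.52 and 0.68. The catalytic pair of the F1 head, blw and ATPsynbeta, was thus below the subunit median in both cases, and ox was not tested.

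The medians of the other gene lists of the pathway lay between those of the subunit genes and of all genes, and single genes lay beyond both. The shares of all genes called were 7.54% in Pe and 21.3% in Suc, and no list was tested against them. Of 19 tricarboxylic acid cycle genes 3 were occupied in Pe and 8 in Suc, with a median of 0.61. Idh had the highest mean, 1.40, and kdn, citrate synthase, had 1.30. Of 9 assembly factor genes for complexes II to V 1 was occupied in Pe and 4 in Suc, with a median of 0.62, led by Coa8 at 1.62 and Scox, a copper chaperone of complex IV, at 1.52. The 3 assembly factor genes of complex I had a median of 0.49, with 0 occupied in Pe and 1 in Suc, and the highest was CIA30 at 0.60. Of 14 and 34 names on these 2 lists, 3 and 11 were found in the annotation, so the lists are partial.

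Among 15 mitochondrial carrier and import genes 1 was occupied in Pe and 6 in Suc, and the median was 0.20. Counts on this and the following lists stand beside 7.54% of all genes in Pe and 21.3% in Suc. The adenine nucleotide translocases Ant2 and sesB, which exchange ADP for ATP and overlap each other, led at 1.75 and 1.64. Of 13 genes of coenzyme Q synthesis and other electron entry 0 were occupied in Pe and 4 in Suc, with a median of 0.26, and Coq3 at 1.41 and Gpo1, glycerol phosphate dehydrogenase, at 0.90 were highest. Of 12 regulators of mitochondrial biogenesis 0 were occupied in Pe and 4 in Suc, with a median of 0.55. Ets97D, the fly GABP alpha, which is known to activate nuclear respiratory genes in mammals, had 1.32, and TFAM, the mitochondrial DNA packaging factor, had 0.98. On none of these lists was a gene called different between Pe and Suc.

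No member was called different between Pe and Suc. In the two-sided limma test the smallest adjusted p of a member was 0.896, and 0% of all genes tested were called in either direction. At an unadjusted p under 0.05, 1 member was higher in Pe, beside 1.66% of all genes, and 3 were lower, beside 2.28%. The mean was lower in Pe for 50 of 80 members, 45 subunit genes and 5 paralogs, beside 45.3% of all genes. The median difference of the 80 members was -0.09, against 0.02 for all genes. For the 61 subunit genes it was -0.15 and for the 19 paralogs 0.05. The sign of the members' median was not stable: it was 0.08 under median and MAD scaling and 0.06 without Suc replicate 2, while it was -0.26 without Suc replicate 1.

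Both Pe profiles lay below both Suc profiles for 16 members, beside 14.0% of all genes, and above both for 12, beside 23.0%. Of the 16 below, 15 are subunit genes, and of the 12 above, 7 are paralogs. By complex the median difference of the subunit genes was -0.12 for I, -0.35 for II, -0.17 for III, -0.29 for IV and -0.34 for V. All 5 were negative in the deposited scaling, but under median and MAD scaling all 5 were positive, between 0.02 and 0.21, and under quantile normalization they lay between -0.13 and 0.02. Without Suc replicate 2, 4 of the 5 were positive and complex II stood at -0.10. Among genes with 10 or more fragments complexes III and V stood at 0.07 each, while I, II and IV stood at -0.07, -0.35 and -0.30. The direction of these medians therefore rests on the scaling, on the fragment minimum and on 1 profile. The shift in the tracheal markers, -0.59, and in the enterocyte markers, -0.48, was also negative and larger, and it was -0.39 and -0.25 under median and MAD scaling.

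**Figure D2:**
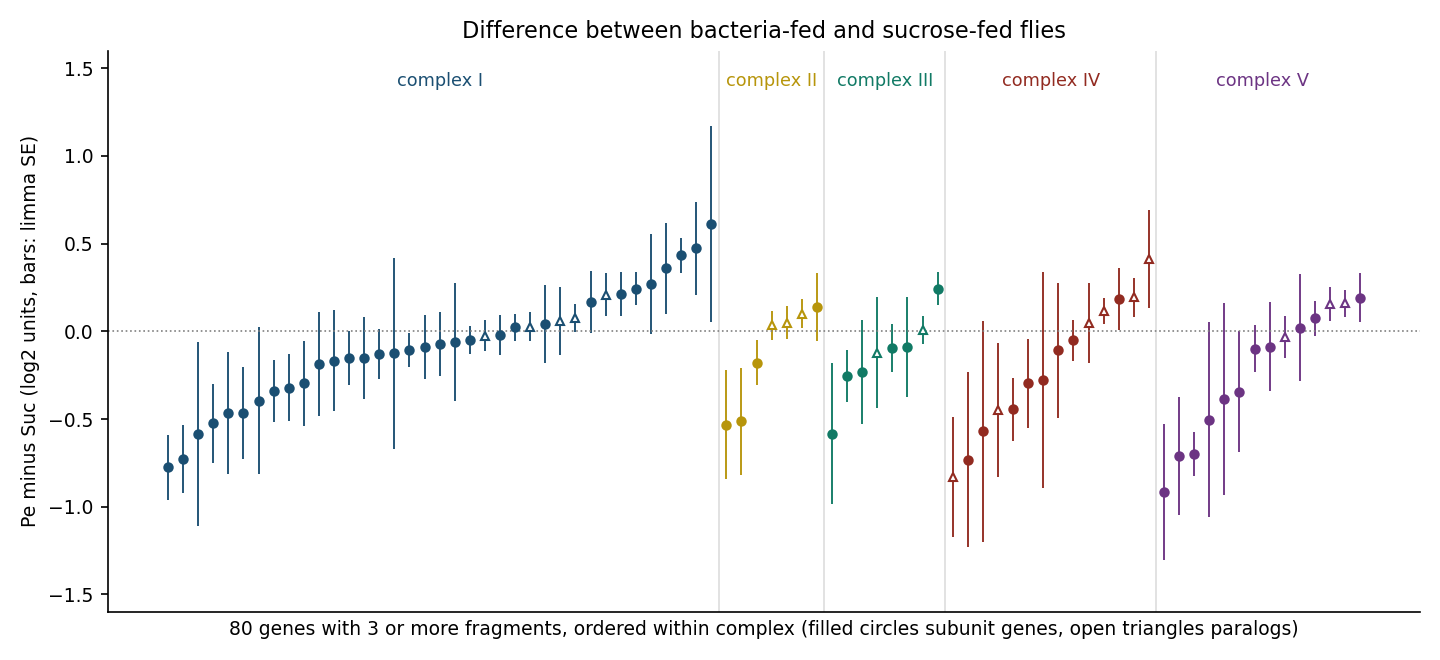
Difference Pe minus Suc in log2 units for the 80 members tested, ordered within each complex, with bars for the standard error from limma; filled circles are subunit genes and open triangles paralogs. Differences ran from below 0 to above 0 in each complex and none passed the adjusted threshold.

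Among the lower members by smallest unadjusted p were ATPsynCF6, ND-B17.2 and ND-SGDH. ATPsynCF6, coupling factor 6 of the peripheral stalk (3R:23355220-23356064), had 0.63 and 0.46 in Pe, against 1.15 and 1.34 in Suc. The difference was -0.70 with a standard error of 0.13, an unadjusted limma p of 0.00843 and an adjusted p of 0.896. ND-B17.2, an accessory subunit of complex I (2L:2579201-2580172), had 0.30 and 0.33 in Pe, against 0.87 and 1.31 in Suc, a difference of -0.77 with a standard error of 0.19. ND-SGDH, a membrane arm subunit of complex I, had 0.88 and 0.96 in Pe, against 1.42 and 1.87 in Suc, a difference of -0.73 with a standard error of 0.20. In these 3 genes the conditions did not overlap. Under median and MAD scaling the difference was smaller, -0.41 at ATPsynCF6, -0.56 at ND-B17.2 and -0.30 at ND-SGDH.

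The next 3 by p were COX5B, COX7AL and ATPsynD, the d subunit of the peripheral stalk. The difference was -0.45 for COX5B, with a standard error of 0.18, and -0.83 for COX7AL, with one of 0.34. ATPsynD had 1.16 and 0.43 in Pe, against 1.38 and 2.04 in Suc, a difference of -0.92 with a standard error of 0.39. Under median and MAD scaling the difference of COX5B turned positive, at 0.77, that of COX7AL was -0.06 and that of ATPsynD -0.50.

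Among the higher members ND-13A, an accessory subunit of complex I whose mammalian counterpart binds zinc (2L:5099177-5100288), had the smallest p. Its values were 0.51 and 0.49 in Pe, against -0.01 and 0.15 in Suc. The difference was 0.43 with a standard error of 0.10, an unadjusted limma p of 0.0176 and an adjusted p of 0.896. It was occupied in Pe and not called in Suc, although the difference itself did not pass. ND-B14.7, a membrane subunit, had 0.43 and 0.30 in Pe, against 0.09 and 0.15 in Suc. ND-MWFE, a small membrane subunit, had 0.73 and 1.39 in Pe, against 0.58 and 0.59 in Suc. Its difference of 0.47 was 0.78 under median and MAD scaling and 0.14 without Pe replicate 2. The groups did not overlap in any of these genes. UQCR-11, ATPsynbetaL and ND-49L completed the 6, with differences of 0.24, 0.16 and 0.21. Their values were near or below 0, so the difference in these 3 lies among genes that were called occupied in neither condition.

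The paralogs were compared with the parent gene whose name they carry, or with levy, cype and sun where the parent has another name. In 19 of 24 pairs both genes were tested. The paralog was lower than its parent in all 4 profiles in 16 of the 19, higher in all 4 in 1, and mixed in 2. The median difference, paralog minus parent, was -1.01. By profile it was -0.78 and -0.72 in Pe, against -0.96 and -1.31 in Suc. With 4 profiles the exact two-sided sign-flip permutation test cannot give a p below 0.125, the value of every pair with 1 direction in all 4 profiles, so no pair could pass 0.05. The 4 profiles span both conditions, and levy, ND-51 and COX7A each serve as parent in 2 pairs, so the pairs are not independent. Of the 5 pairs with an untested gene, 2 were lower in all 4 profiles.

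**Figure D3:**
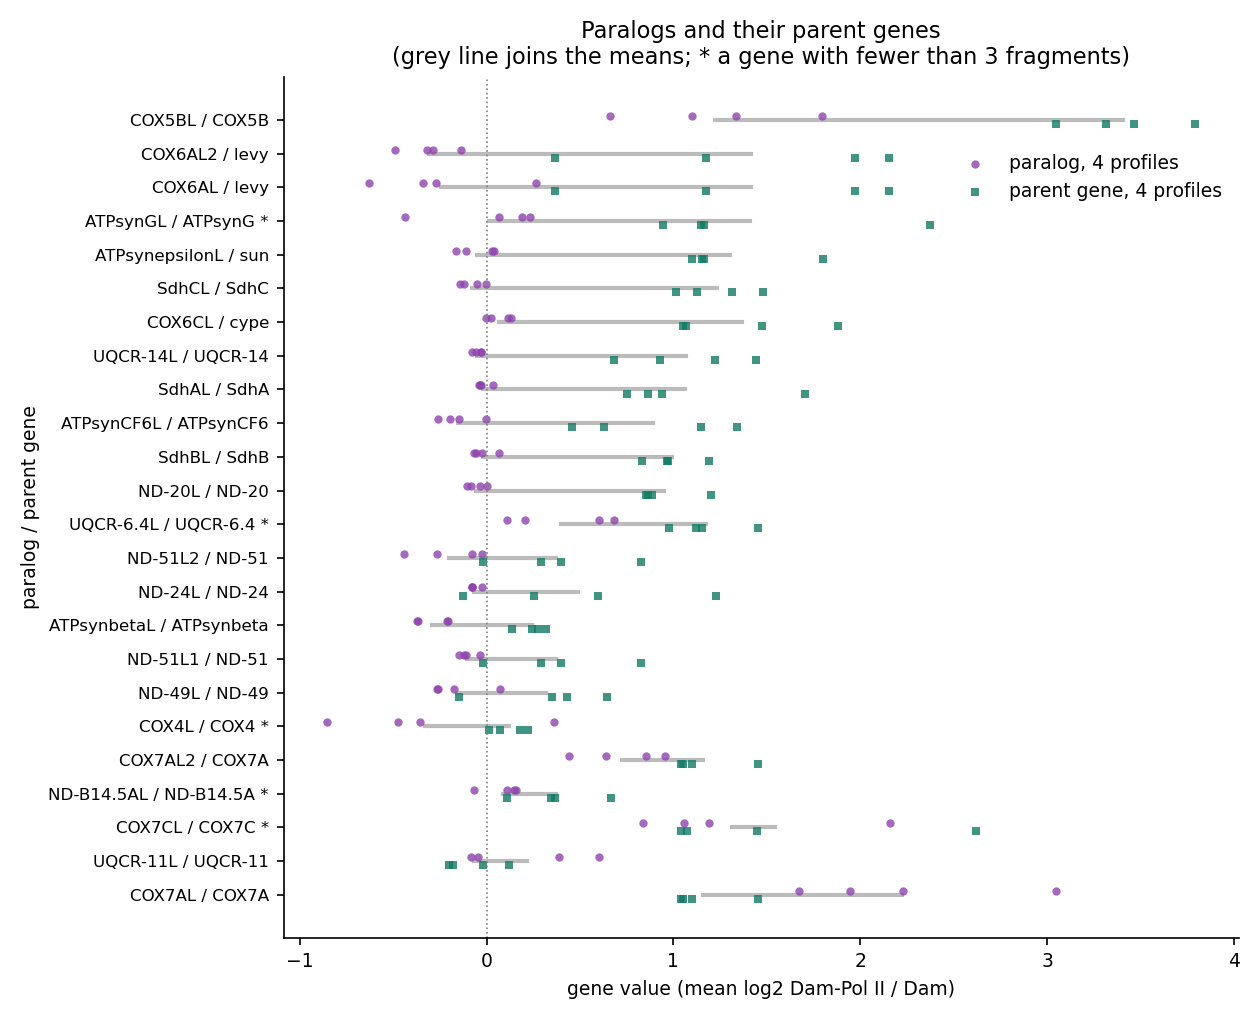
Gene values (mean log2 Dam-Pol II over Dam) of the 24 paralogs (purple circles) and their parent genes (green squares) in the 4 profiles, with a grey line between the 2 means. Most paralogs sit near 0 and below all 4 values of the parent; COX7AL lies above COX7A, and an asterisk marks pairs with a gene of fewer than 3 fragments.

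All 3 paralogs of complex II lay near 0 while their parents were occupied in Suc. SdhAL had -0.03 and 0.03 in Pe and -0.03 and -0.04 in Suc, and its difference from SdhA was -1.08 ± 0.45 (SD over 4 profiles). SdhBL had -0.06 and 0.07 in Pe, against -0.07 and -0.02 in Suc, and was -1.01 ± 0.19 from SdhB (SD over 4 profiles). SdhCL lies 93181 bp from SdhC on 3R, and its difference was -1.31 ± 0.17 (SD over 4 profiles). No fragment of SdhBL or SdhCL touches another gene, so no other gene enters these near-zero values.

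In complex I most parents were lower, and the differences other than that of ND-20L were smaller. ND-20L, with -0.04 and 0.00 in Pe, against -0.11 and -0.08 in Suc, was -1.01 ± 0.19 from ND-20 (SD over 4 profiles). The differences of ND-51L2, ND-51L1 and ND-49L were -0.58, -0.48 and -0.48, and their parents ND-51 and ND-49 were themselves not called. ND-24L was lower than ND-24 in 3 of 4 profiles, with a difference of -0.55. The values of ND-24L were between -0.08 and -0.02, so the change of sign came from ND-24, which was -0.13 in Suc replicate 1 and 1.23 in Suc replicate 2.

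In complexes III and V the picture was alike except for UQCR-11L. UQCR-14L was -1.12 from UQCR-14, ATPsynepsilonL was -1.36 from sun and ATPsynCF6L was -1.05 from ATPsynCF6. ATPsynbetaL was -0.53 ± 0.08 from ATPsynbeta (SD over 4 profiles), with a parent that was itself low. UQCR-11L had 0.39 and -0.08 in Pe, against -0.05 and 0.60 in Suc, and was lower than UQCR-11 in 1 of 4 profiles. All 4 of its fragments lie within Acsl, an acyl-CoA synthetase gene with a mean of 0.73.

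Complex IV held the 3 paralogs that were called occupied: COX7AL in both conditions, and COX5BL and COX7AL2 in Suc. COX7AL2 (2L:2192525-2197912) had 0.64 and 0.85 in Pe, against 0.44 and 0.95 in Suc, and lies on another chromosome arm than COX7A. It shares 1 of its 13 fragments with another gene, and its highest fragment, near the far end of its 5388 bp, had 1.58 and 2.00 in Pe, against 1.30 and 1.58 in Suc. The other tested complex IV paralogs were low. COX6AL was -1.66 and COX6AL2 -1.73 from levy, and COX6CL was -1.30 from cype.

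In 3 pairs paralog and parent lie within 5000 bp of each other, and a GATC fragment can then span both. In the 17 tested pairs that lie farther apart, a restriction added after the values were known, the paralog was lower in all 4 profiles in 15, and the median difference was again -1.01. COX5BL starts 123 bp beyond COX5B and lies inside Trmt6, a tRNA methyltransferase subunit gene, with which it shares all 11 fragments. The fragment that touches all 3 genes had 2.33 and 2.41 in Pe, against 2.80 and 3.07 in Suc. From 1856 to 2066 bp past the start coordinate of COX5B, within COX5BL, the signal was between -0.03 and 0.41. Farther on, near the other end of COX5BL, the fragment at 2077 to 2252 bp had 0.36 and 2.44 in Pe, against 1.22 and 2.58 in Suc. The value of COX5BL thus joins signal continuous with COX5B on one side and with Trmt6 on the other.

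COX7AL begins 2626 bp beyond COX7A on 3R. Its values, 1.94 and 1.67 in Pe, against 2.23 and 3.05 in Suc, exceeded those of COX7A, 1.05 and 1.46 in Pe, against 1.10 and 1.04 in Suc, in every profile. The difference was 1.06 ± 0.74 (SD over 4 profiles). Of the 3 fragments of COX7AL, 1 touches no other gene, and it had 2.40 and 1.47 in Pe, against 2.71 and 3.59 in Suc. Of the other fragments, 1 is shared with DppIII, a peptidase gene.

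COX7CL, 282 bp beyond COX7C on 2R, has 2 fragments, 1 shared with COX7C and 1 with sel, and was not tested. Its values were 0.84 and 1.19 in Pe, against 1.06 and 2.16 in Suc, close to those of COX7C, 1.07 and 1.45 in Pe, against 1.04 and 2.62 in Suc. COX7CL has no fragment of its own. The one it shares with sel had 0.64 and 1.14 in Pe, against 1.21 and 1.43 in Suc. The one it shares with COX7C had 0.90 and 1.21 in Pe, against 1.01 and 2.39 in Suc.

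**Figure D4:**
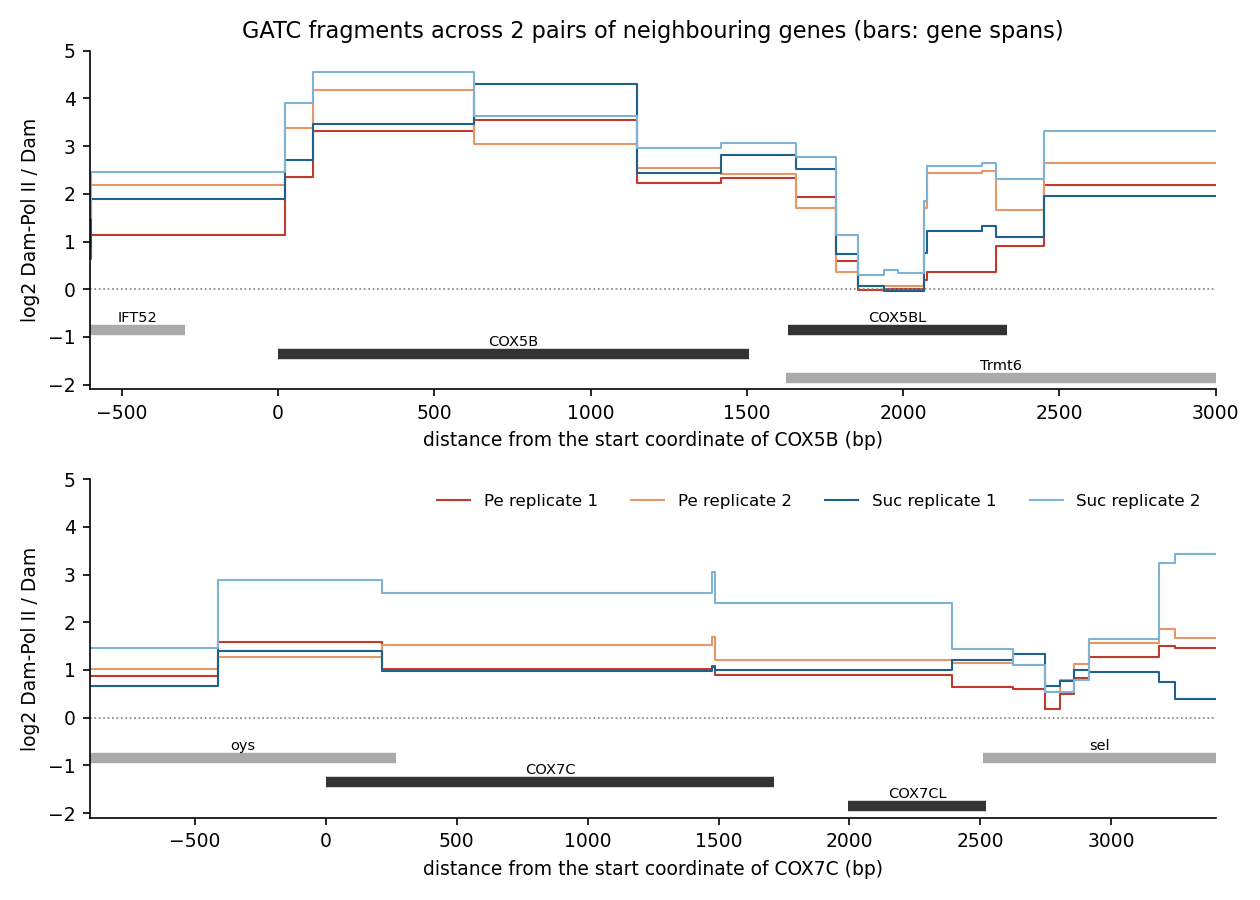
Log2 ratio of each GATC fragment (Dam-Pol II to Dam) across COX5B with COX5BL and COX7C with COX7CL in the 4 profiles, by distance in bp from the start coordinate of the parent gene; dark bars are members and grey bars other genes. Signal fell to near 0 inside COX5BL and was continuous from COX7C into COX7CL.

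Paralogs and subunit genes also differed in where they lie. Of the 24 paralogs, 10 lie inside the span of another gene, against 2 of 63 subunit genes. Their hosts include Smurf, Fur1, Trpm, Con and Mipp1. In 11 paralogs, against 5 subunit genes, all fragments were shared with another gene, and the table used gives no strand, so such values belong to the locus. Inside Smurf, at 0.24, ND-51L1 had a mean of -0.10, and inside Trpm, at 0.20, ND-51L2 had -0.20. Inside the hosts with the highest means the paralogs were above 0. COX5BL had 1.22 inside Trmt6 at 1.82, UQCR-6.4L 0.40 inside Mipp1 at 0.86 and UQCR-11L 0.22 inside Acsl at 0.73. The 7 paralogs that share no fragment, SdhBL, SdhCL, ND-20L, ND-24L, COX6CL, COX4L and ATPsynGL, had means between -0.33 and 0.07.

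A list of male germline genes was read as well, in these samples of midgut. Of 13 tested, 0 were occupied in Pe and 1 in Suc, beside 7.54% and 21.3% of all genes, with a median of -0.05. Whether the low paralog values have to do with expression in the testis was not tested. The highest means were those of sa, at 1.13, all of whose 6 fragments are shared, and mia, at 0.37.

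In long genes the whole-gene value averaged stretches of high signal and stretches near or below 0. There were 13 members over 3000 bp. In COX6B the fragments from 2029 to 2429 bp past the start coordinate lay between -0.02 and 0.04, while the fragment at 3394 to 3666 bp had 2.30 and 2.04 in Pe, against 3.18 and 4.28 in Suc. All of these fragments also overlap CG18809, so their signal is that of the locus. The short fragments from 2029 to 2077 bp carried identical values within each profile, so they may not be separate measurements. The 6 fragments of COX6B alone gave 0.06 and 0.16 in Pe, against -0.04 and 0.19 in Suc. Of these 6, those from 53 to 118 bp were exactly 0 in all 4 profiles. In ATPsyndelta the fragment over the start coordinate had 2.30 and 0.63 in Pe, against 2.47 and 1.98 in Suc. From 2874 to 3312 bp, where the fragments also overlap CG2962, the signal was between -0.14 and 0.01. The low gene value of ATPsyndelta therefore held a high end and a long stretch near 0, much of it shared with CG2962.

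UQCR-11, over 5463 bp with no shared fragment, showed a narrow peak. The fragment at 468 to 617 bp had 0.77 and 0.58 in Pe, against 1.66 and 1.86 in Suc, where the whole gene was near 0. At that fragment the difference was -1.09, the opposite sign to the whole-gene difference of 0.24. The fragment was picked because it was the highest of the gene, so its difference was not tested. From 2751 to 4291 bp the values were below 0 in Pe replicate 1 and in both Suc profiles.

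**Figure D5:**
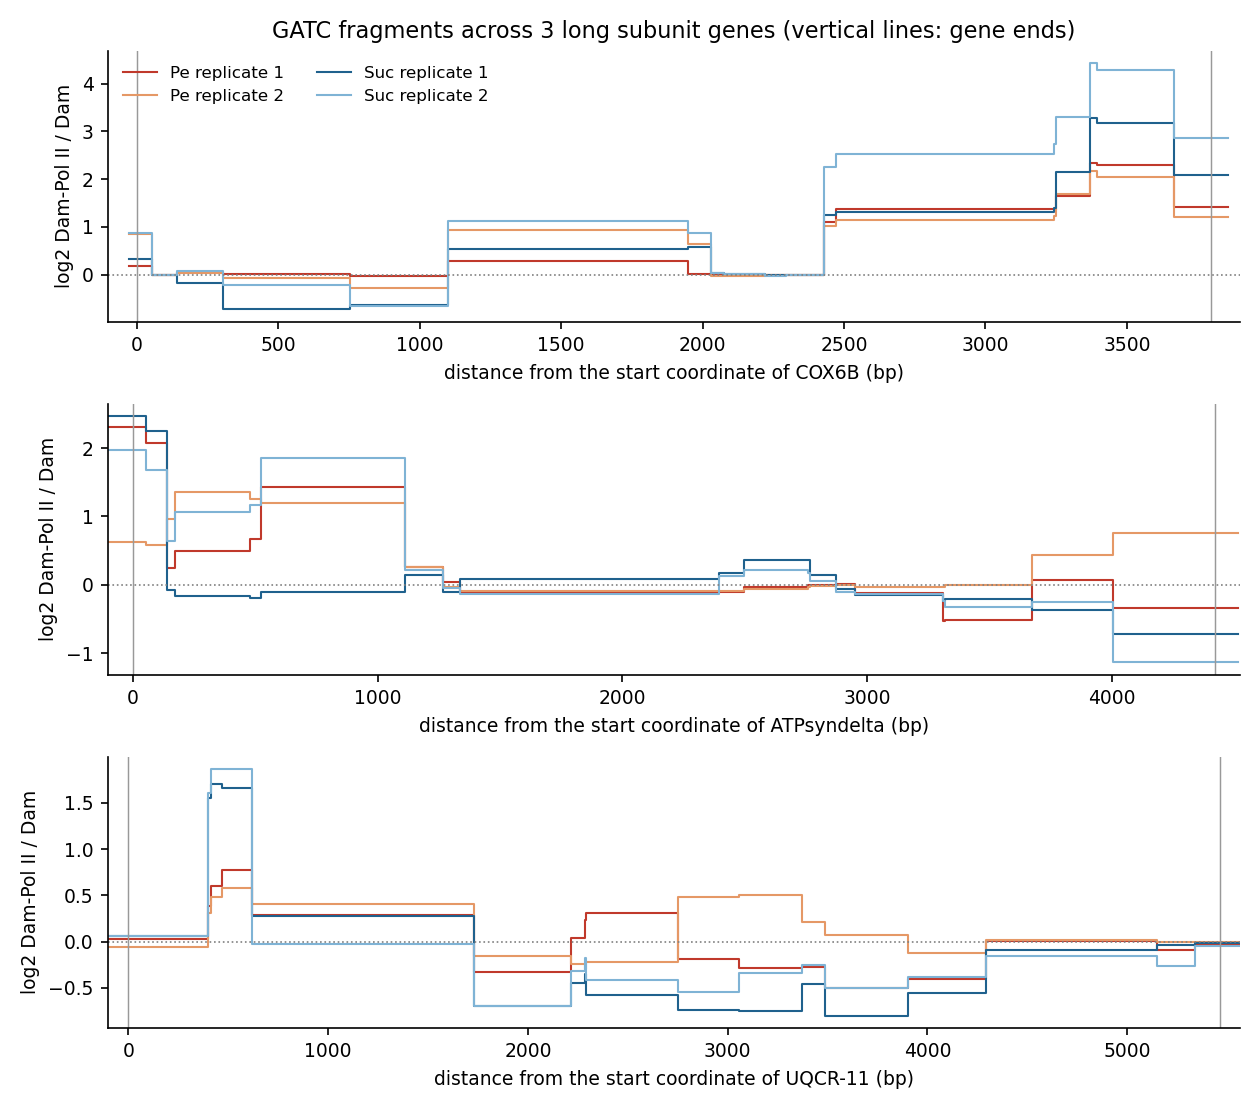
Log2 ratio of each GATC fragment (Dam-Pol II to Dam) across COX6B, ATPsyndelta and UQCR-11 in the 4 profiles, by distance in bp from the start coordinate; grey vertical lines mark the gene ends. Signal stood toward 1 end of each gene, at 3394 to 3666 bp in COX6B, where CG18809 overlaps it, and at 468 to 617 bp in UQCR-11.

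The other long members ranged as widely. ND-15 is annotated over 41305 bp, and 114 of its 130 fragments are shared with other genes, so its mean of 0.58 describes many genes. SdhA, over 4109 bp with 2 of 27 fragments shared, had its highest fragment at 3213 to 4023 bp, with 2.55 and 1.77 in Pe, against 2.12 and 4.30 in Suc. ATPsynC, over 3486 bp, had its highest at 2696 to 3055 bp, with 2.35 and 1.32 in Pe, against 3.08 and 3.83 in Suc. By contrast, the highest fragment of COX6AL2, over 5891 bp, had a mean of -0.0021 over the 4 profiles. That fragment was exactly 0 in both Pe profiles and in Suc replicate 2.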

How the data were processed

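Genomic DNA from midguts with their tracheal cells was cut with DpnI, ligated to adaptors, cut with DpnII and amplified, per the labels' protocols. Each deposited value is a log2 ratio between Dam-Pol II and Dam for 1 GATC fragment; the log scale was read from the range and sign of the values. The aligner, scaling and log base were not given in the sources used here. The build is BDGP 6, per the submitters' processing notes. The labels give the replicate number of Suc replicate 2, whose track carries another number.

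Genes came from a RefSeq table of Release 6, which holds no exons or strand. On nuclear chromosomes there were 383654 fragments, with a median length of 197 bp, and 28 mitochondrial fragments were not used. Genes needed at least 3 fragments. Of genes tested 79.2% share a fragment with another gene, against 90.2% of subunit genes. The fit was limma 3.58.1 in R 4.3.3, with 1 spread for the 2 conditions and the prior variance following fragment number, with Benjamini-Hochberg adjustment at 0.05 over all genes. It was also run on simulated profiles drawn from its own fitted means and spread, which cannot show that it suits these profiles. Other steps used Python 3.11.15, numpy 2.4.6 and pandas 2.3.3. No count or interval that needs depth was computed.

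Members, lists and tests were chosen with earlier results of these data known. Values are given for the 2 highest and 2 lowest subunit genes of each complex, every pair with both genes tested and some other pairs. They are also given for the 6 smallest p of Pe minus Suc per direction, subunits with other names, and up to 2 genes per list. ND-75, other core genes, COX5A, ATPsyngamma, host genes and single fragments beyond these were chosen after their values were seen. Alternatives were other scalings, fragment minimums, gene values and fits, and leaving out each profile. Replicates of Pe and Suc share numbers but no stated source. Some neighbouring signal is not reported here.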

Additional observations from a re-analysis of the deposited data

How the results depend on the processing

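The count of members occupied in Pe, 23, was 54 under quantile normalization, 45 under median and MAD scaling, 4 of 25 members with 10 or more fragments, 0 with the median of fragments, and 1 of 54 with fragments of a single gene. Leaving out a profile gave 0 to 43. The count in Suc, 43, was 11 with 10 or more fragments, 19 with the median of fragments and 25 with fragments of a single gene, and 0 to 45 when a profile was left out. The shares of all genes called moved with these counts, for example to 31.3% in Pe under quantile normalization. The changes in the counts are therefore not a result about the members alone. The cause was not tested, beyond the fewer genes and fragments some alternatives hold. The count differing between Pe and Suc was 0 under every alternative run. At an unadjusted limma p under 0.05 it was 4 members, beside 1.66% of all genes higher and 2.28% lower in Pe. With the replicate number as a block it was 9. No share of all genes was set beside that 9, so it is not a result about the members. Deviations of same-numbered profiles correlated at 0.28 over 13998 genes, but 2 pairs with only a shared number do not establish a pairing. The median of paralog minus parent, -1.01, was -0.55 with 10 or more fragments, where 6 pairs remained, and -1.07 to -0.86 without a profile. Of the other alternatives none reversed it. The scalings moved the median Pe minus Suc of all genes by -0.02 and 0.02.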

Other observations

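The 28 mitochondrial fragments, which lie in the genome that encodes the remaining subunits of complexes I, III, IV and V, were not part of any comparison. Their median log2 ratio was -1.90 and -0.57 in Pe, against -0.16 and -2.40 in Suc. The replicates of each condition differed by more than the conditions.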
